A study of Homo sapiens with 6 samples.

Results

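NRF2, encoded by NFE2L2, its inhibitor KEAP1 and 7 antioxidant target genes were examined after knockdown of SND1 in SKOV3, an established cell line from a human ovarian carcinoma. The genes were taken from a list of 9 symbols. For each, the probe set annotated to that symbol was read, and each of the 9 had 1. The 9 were fitted among 22413 genes, and the sulfiredoxin gene SRXN1 stands in that number only through a probe set that is also annotated to SCRT2, a neural transcription factor gene. Its value is therefore given as that of the SRXN1/SCRT2 probe set and not as SRXN1 mRNA.

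The knockdown cells stably carried a pLKO hairpin against SND1 (3 arrays), and the control cells stably carried the empty pLKO vector (3 arrays). All cells were SKOV3, were kept in McCoy's 5A with fetal bovine serum at 10% and had no further treatment, so no oxidant or NRF2 activator was applied to either group. The titles of all knockdown arrays hold shSND1-#2, taken here as the same hairpin, and that of the first holds a further number. No label explains that number. With the same hairpin throughout and an empty vector as control, loss of SND1 cannot be told apart from other effects of that hairpin. Whether the lines were pools or clones, and whether the arrays of a group came from separate cultures, is not stated in the labels. The p-values therefore cover the spread between these arrays alone, and that spread may be technical. Expression was measured as log2 values per probe set on a human transcriptome array.

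NRF2 is a transcription factor that is made continuously and, in unstressed cells, bound by KEAP1, which hands it to a CUL3 ubiquitin ligase for degradation by the proteasome. Oxidants and electrophiles modify cysteines of KEAP1, NRF2 then escapes, pairs with a small MAF protein and binds antioxidant response elements beside its target genes. The pathway is thus switched mainly at the level of the protein, which these arrays do not measure. Among the targets, GCLC and GCLM encode the subunits of the first enzyme of glutathione synthesis, TXNRD1 and SRXN1 serve the thioredoxin and peroxiredoxin system, NQO1 reduces quinones, HMOX1 degrades heme, and ME1 makes cytosolic NADPH from malate.

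The antioxidant response element core was searched as the letters TGACNNNGC on both strands, in RefSeq promoter windows of build GRCh38.p14 that run from 250 bases before to 50 bases after a start site. Of the 9 genes 8 were in that table, with 11 windows, and HMOX1 was not. The core was held by 5 windows of 4 genes (ME1, TXNRD1, GCLM and KEAP1) and by no window of NFE2L2, NQO1, GCLC or SRXN1. Over all 35116 windows 13.3% held it, and 18.1% of tested genes in that table had any window with it. Letters outside these windows were not searched, so a gene without a match here may hold the core elsewhere. A window is shown for each of 3 target genes that behaved differently on the arrays: ME1 lower, TXNRD1 higher and GCLM not past the threshold. Each is printed 5′ to 3′ on the strand of the gene, and capitals mark every match to the core. The first match of ME1 begins 137 bases before the start site and also contains TGACTCA, the core bound by AP-1 factors, which 4.95% of all windows hold on either strand. The full run TGACTCAGC was in 0.561% of all windows. TXNRD1 had another start site, whose window held 1 more match. The windows are ME1 at chr6:83431002-83431301 (minus strand), TXNRD1 at chr12:104215529-104215828 (plus strand) and GCLM at chr1:93909381-93909680 (minus strand).
ME1: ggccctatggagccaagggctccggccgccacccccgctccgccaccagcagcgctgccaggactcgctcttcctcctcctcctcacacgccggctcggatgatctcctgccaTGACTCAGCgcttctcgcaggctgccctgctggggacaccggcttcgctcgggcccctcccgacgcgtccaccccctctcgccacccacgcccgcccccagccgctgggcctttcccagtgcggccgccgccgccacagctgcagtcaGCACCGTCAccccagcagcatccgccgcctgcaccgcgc
TXNRD1: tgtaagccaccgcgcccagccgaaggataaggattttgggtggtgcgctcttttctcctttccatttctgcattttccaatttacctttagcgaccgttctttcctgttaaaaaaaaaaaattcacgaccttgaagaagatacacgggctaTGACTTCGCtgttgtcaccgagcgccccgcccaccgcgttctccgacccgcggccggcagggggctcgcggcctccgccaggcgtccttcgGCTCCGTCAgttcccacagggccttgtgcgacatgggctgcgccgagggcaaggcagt
GCLM: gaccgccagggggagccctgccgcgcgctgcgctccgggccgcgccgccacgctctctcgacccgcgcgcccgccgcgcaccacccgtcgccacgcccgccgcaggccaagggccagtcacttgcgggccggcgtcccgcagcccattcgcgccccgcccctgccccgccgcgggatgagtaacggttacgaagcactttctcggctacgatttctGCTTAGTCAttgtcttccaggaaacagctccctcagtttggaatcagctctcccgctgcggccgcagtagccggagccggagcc
A match is a description of these letters, and binding at any of them was not measured.

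SND1 was lower on every knockdown array. Its log2 values were 5.88, 5.70 and 5.99 on the knockdown arrays, against 8.83, 8.60 and 8.80 on the vector control arrays, a difference of -2.89 ± 0.09 (SE; limma adjusted p = 1.3e-06). The knockdown mean of 5.86 lay below 6.28, the highest mean of 23 background control probe sets, so SND1 was at least 5.51-fold lower. The median of those 23 means was 3.11 and the median of all deposited values 4.16. Most values therefore lie below this cut, and a level within this background range is not necessarily undetected. The probe set also covers SND1-IT1. Arrays of a group correlated at r = 0.9981 to 0.9987 across genes, which are not independent replicates, and arrays of different groups at 0.9845 to 0.9861. Of 9 measured SKOV3 carcinoma markers 3 were higher and 4 lower, 77.8% past an adjusted p of 0.05 against 32.0% of all genes. With any 1 array left out 3 rather than 4 were lower, and 2 to 3 were higher. PAX8 and KRT7 stood above the background controls in both groups, with log2 means of 12.37 and 11.97 in knockdown cells and 12.30 and 11.73 in control cells. WT1 was the 1 marker below that highest background mean in both groups (3.76 in knockdown and 3.92 in control cells). It was among the lower genes (limma adjusted p = 0.0458). The ovarian antigen gene MUC16 was at least 1.19-fold lower, its knockdown mean of 4.53 lying within the background range, mesothelin, MSLN, was higher by 0.73 on the log2 scale, KRT8 and KRT18 were lower by 1.39 and 0.52, and ERBB2 was not analysed here. Of 7 leukocyte markers 6, and all 5 endothelial and 6 fibroblast markers, lay in both groups at or below that background level. CD68, the leukocyte marker above that level, differed by -0.01. In the leukocyte, endothelial and fibroblast lists only KDR (-0.47) and LUM (1.85) passed the threshold, and both lay within the background range.

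Over all genes 32.0% passed an adjusted p of 0.05 in this comparison, 15.9% higher and 16.1% lower in knockdown cells. Among the 13944 genes with a mean above the median of all values, 6664 besides ME1 passed in that fit of all genes. With those genes fitted alone, which also changes the adjustment of p, 7219 passed. Brighter genes thus passed more often, and the share over all genes is a low yardstick for lists of mostly bright genes. Of the 9 NRF2 genes 5 passed, 2 higher and 3 lower. Their median log2 difference was -0.04, against 0.003 over all genes. The groups did not overlap for 6 of the 9, against 43.6% of all genes. ME1, HMOX1 and NQO1 were lower in knockdown cells, GCLC and TXNRD1 were higher, and NFE2L2, KEAP1, GCLM and the SRXN1/SCRT2 probe set did not pass. The genes that passed thus lay on both sides of 0. In bulk RNA, fewer cells that express a gene and less RNA of it per cell cannot be told apart.

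**Figure D1:**
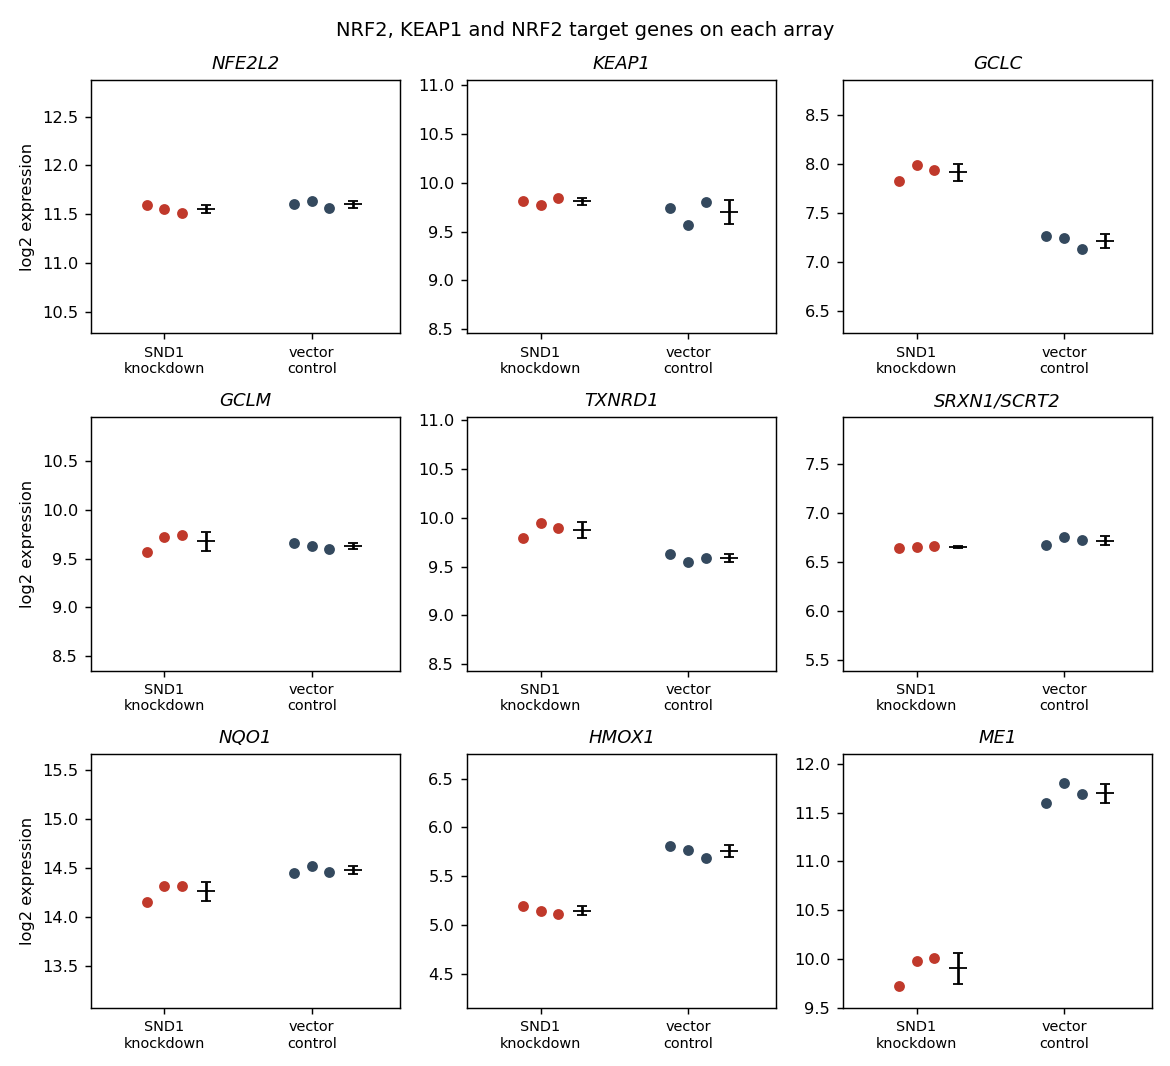
Log2 expression of the 9 genes on each of the 6 arrays, 1 panel per gene, SND1 knockdown left and vector control right. Points are arrays, horizontal marks are means and bars are SDs of 3 arrays, and every panel spans the same log2 range. ME1 shows the widest gap (9.72 to 10.01 against 11.60 to 11.80), while the NFE2L2 points of both groups lie between 11.51 and 11.63.

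The transcription factor gene NFE2L2 had log2 values of 11.60, 11.56 and 11.51 on the knockdown arrays, against 11.60, 11.63 and 11.57 on the control arrays. The groups overlapped. The difference was -0.04, with a 95% confidence interval of -0.16 to 0.07 (limma adjusted p = 0.559). Of all genes 75.4% differed by at least as much in either direction. KEAP1, the inhibitor gene, had values of 9.81, 9.77 and 9.84 in knockdown cells, against 9.74, 9.57 and 9.80 in control cells. Here too the groups overlapped, with the second control array the lowest. Its difference was 0.11 (95% confidence interval -0.06 to 0.27, adjusted p = 0.318), and 0.04 without the second control array.

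The catalytic subunit gene of glutamate-cysteine ligase, GCLC, was 1.63-fold higher in knockdown cells. Its log2 values were 7.83, 7.99 and 7.94 on the knockdown arrays, against 7.26, 7.25 and 7.13 on the control arrays. Every knockdown array lay above every control array, and the difference was 0.71 ± 0.06 (SE; limma adjusted p = 0.000159). Of all genes 7.76% differed by at least as much. GCLM, encoding the modifier subunit that raises the activity of the same enzyme, had values of 9.57, 9.72 and 9.74 in knockdown cells, against 9.66, 9.63 and 9.60 in control cells. The groups overlapped, with the first knockdown array the lowest of all 6, and the difference was 0.05 (95% confidence interval -0.09 to 0.19, adjusted p = 0.633). The difference of GCLC exceeded that of GCLM by 0.66 on the log2 scale. Relative to the control mean, that within-array difference was 0.68, 0.69 and 0.61 on the knockdown arrays, against 0.02, 0.04 and -0.05 on the control arrays. A two-sided exact permutation test gave p = 0.1, the smallest value that 3 arrays against 3 allow. This pair was chosen after the values were seen.

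TXNRD1, encoding the cytosolic reductase that keeps thioredoxin reduced, was 1.22-fold higher in knockdown cells. It had log2 values of 9.79, 9.95 and 9.90 on the knockdown arrays, against 9.63, 9.55 and 9.59 on the control arrays. The groups did not overlap, and the difference was 0.29 ± 0.06 (SE; limma adjusted p = 0.00658). The SRXN1/SCRT2 probe set, which covers the gene of the enzyme that repairs overoxidised peroxiredoxins, had values of 6.65, 6.66 and 6.66 in knockdown cells, against 6.67, 6.76 and 6.73 in control cells. Every knockdown array lay below every control array, by a narrow margin. The difference of -0.06 (95% confidence interval -0.17 to 0.04) did not pass the threshold (adjusted p = 0.364).

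NQO1, encoding a quinone reductase that is widely used as a readout of NRF2, had log2 values of 14.15, 14.32 and 14.31 on the knockdown arrays, against 14.45, 14.52 and 14.46 on the control arrays. It was 1.16-fold lower, by -0.21 ± 0.06 on the log2 scale (SE; limma adjusted p = 0.0335), with no overlap between the groups and the first knockdown array the lowest. Of all genes 32.5% differed by at least as much. The call ended without the first control array (adjusted p = 0.0695), the second (0.11), the third (0.0784) or the first knockdown array (0.0622), after renewed quantile normalization (0.123), after centring on array medians (0.0523) and in a fit of every probe set (0.112). Over 14 alternatives its adjusted p ran between 0.0219 and 0.123.

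HMOX1, encoding the inducible heme oxygenase, had log2 values of 5.20, 5.14 and 5.11 on the knockdown arrays, against 5.81, 5.77 and 5.69 on the control arrays. The groups did not overlap, and the difference was -0.61 ± 0.05 (SE; limma adjusted p = 0.000122). Both groups lay below the highest of the 23 background control means, with 3 of them above the knockdown mean and 2 above the control mean, so no fold is given. Raising both means to that highest background mean gives 0 by construction, because both lie below it.

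ME1, the cytosolic malic enzyme gene, differed most among the 9. It had log2 values of 9.72, 9.98 and 10.01 on the knockdown arrays, against 11.60, 11.80 and 11.69 on the control arrays. It was 3.47-fold lower in knockdown cells, with a mean of 9.90 ± 0.16 in knockdown cells and 11.70 ± 0.10 in control cells (SD, n = 3 each). The difference of -1.80 ± 0.09 (SE; limma adjusted p = 9.91e-06) was matched or exceeded in size by 1.35% of all genes. Its adjusted p ranged from 4.48e-06 to 0.000145 over 14 alternatives.

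**Figure D2:**
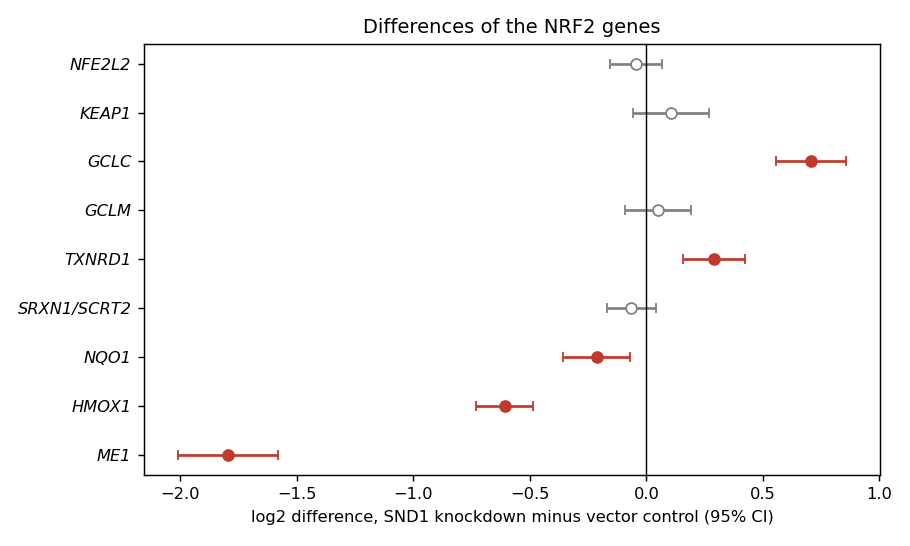
Log2 difference (SND1 knockdown minus vector control) of each of the 9 genes with its 95% confidence interval from limma. Filled red points passed an adjusted p of 0.05 and open grey points did not. GCLC and TXNRD1 lie right of 0, ME1, HMOX1 and NQO1 left of it.

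The 9 genes lie on 8 chromosomes, and the genes beside them in RefSeq order were read to see whether a region moved as a whole. The 20 measured genes nearest to ME1 on chromosome 6, 10 on each side, had a median log2 difference of 0.25, with 10 higher and 2 lower, opposite to ME1 itself. Beside GCLC, also on chromosome 6, the median was 0.05, with 5 higher and 2 lower. Beside HMOX1 on chromosome 22 it was -0.09, with 1 higher and 7 lower. The neighbours of the other 6 had medians between -0.09 and 0.10, and those of NQO1, at 0.10, had the opposite sign to NQO1.

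The profiles closest to that of ME1 over the 6 arrays, after subtracting each gene's control mean, were those of the cathepsin L gene CTSL (Euclidean distance 0.16 on the log2 scale, difference -1.75), ARRDC4 (0.201, difference -1.79) and the noncoding RNA gene LINC00922 (0.223, difference -1.71). They came from 6664 genes past the threshold with a mean above the median of all values. The distance depends mostly on the difference between groups, so genes close to ME1 by this measure have a similar difference by construction. Closest to NFE2L2, among 13943 genes, were the chaperonin subunit gene CCT4 (0.0325), ZNF329 (0.0343) and PPP1R14B (0.0371), with differences of -0.05, -0.05 and -0.04. Many genes lie near 0 in this comparison.

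Of 25 regulators of NRF2 20 were measured, 5 higher and 2 lower (median 0.05), 35% past the threshold against 32.0% of all genes. CUL3, the scaffold of the ligase that KEAP1 serves, was 1.19-fold higher (log2 difference 0.25, limma adjusted p = 0.0073). SQSTM1, encoding the autophagy receptor p62 that sequesters KEAP1, was 1.5-fold higher, at 8.52, 8.57 and 8.50 on the knockdown arrays, against 7.98, 7.90 and 7.94 on the control arrays (difference 0.59 ± 0.05 SE, adjusted p = 9.23e-05). PALB2, encoding a DNA repair protein that also binds KEAP1, was 1.44-fold higher. GSK3B, encoding a kinase that marks NRF2 for degradation without KEAP1, was 1.61-fold lower (difference -0.69, adjusted p = 0.000495). Of the small MAF partner genes, MAFG differed by 0.34 and MAFF by -0.02 (adjusted p = 0.00693 and 0.757), both within the background range. NFE2L1, the related factor that drives proteasome genes, differed by 0.06 (adjusted p = 0.368). RBX1, BACH1 and MAFK were not analysed here. Without the first or the third control array, or the third knockdown array, 1 regulator rather than 2 was lower.

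Of 33 measured genes of glutathione synthesis and use 3 were higher and 9 lower (median -0.04), 36.4% past the threshold against 32.0% of all genes. GSR, encoding the reductase that regenerates glutathione with NADPH, was 3.02-fold higher, at 13.85, 14.08 and 13.98 on the knockdown arrays, against 12.48, 12.28 and 12.37 on the control arrays (difference 1.59 ± 0.08 SE, limma adjusted p = 8.85e-06). No array of one group reached the other. GPX8, a peroxidase gene of the endoplasmic reticulum, was 2.41-fold lower (adjusted p = 0.000192). Glutaredoxin, GLRX, was higher by 0.89 and the glutathione transferase gene GSTM3 was lower by 0.48, both within the background range. Probes for GSTM3 may also read its close relatives. SLC7A11, the cystine importer gene and an NRF2 target, had values of 13.10, 13.28 and 13.45 in knockdown cells, against 13.74, 13.56 and 13.55 in control cells. It was 1.27-fold lower (difference -0.34 ± 0.10 SE, adjusted p = 0.0347), a call that ended without any 1 of the 3 control arrays or without the first or second knockdown array (adjusted p = 0.0607 to 0.11). It also ended after renewed quantile normalization (0.0674) and in a fit of every probe set (0.0942).

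Of 18 measured thioredoxin, peroxiredoxin, sestrin and methionine sulfoxide reductase genes 5 were higher and 7 lower (median 0.02), 66.7% past the threshold against 32.0% of all genes. The central members did not pass: the thioredoxin gene TXN differed by 0.01 (limma adjusted p = 0.924) and the peroxiredoxin gene PRDX1 by 0.02 (0.845). PRDX1 lay between 16.07 and 16.24 on all 6 arrays, while the deposited values ran up to 19.9. Whether a signal this bright could still register a difference was not tested. PRDX2, encoding another cytosolic peroxiredoxin, was 2.18-fold lower, at 9.45, 9.34 and 9.39 on the knockdown arrays, against 10.61, 10.43 and 10.50 on the control arrays (adjusted p = 1.57e-05). MSRB3, encoding a methionine sulfoxide reductase, was at least 2.86-fold lower, counted against the highest background mean because the knockdown mean of 5.79 lay below it. Counted in the same way, the sestrin gene SESN1 was at least 1.56-fold higher. TXNIP, encoding the protein that binds and inhibits thioredoxin, was 1.38-fold lower (adjusted p = 0.0276), a call that ended without the first or the third control array or the first or the third knockdown array (adjusted p = 0.0511 to 0.0865). Without the first or second control array, or the second or the third knockdown array, 3 genes of this list rather than 5 were higher. Without the third control array or the third knockdown array 4 rather than 7 were lower.

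Of 14 measured genes that supply NADPH, which GSR and TXNRD1 use, 4 were higher and 5 lower (median 0.04), 64.3% past the threshold against 32.0% of all genes. NNT, the mitochondrial transhydrogenase gene, had log2 values of 4.89, 5.01 and 5.00 on the knockdown arrays, against 8.16, 8.23 and 8.43 on the control arrays. It was at least 3.98-fold lower (difference -3.31 ± 0.08 SE, limma adjusted p = 4.45e-07), the knockdown mean lying within the background range. IDH2, the mitochondrial isocitrate dehydrogenase gene, was 2.45-fold higher, at 10.31, 10.54 and 10.43 in knockdown cells, against 9.11, 9.02 and 9.28 in control cells (adjusted p = 3.95e-05). PGD, an NADPH-producing enzyme gene of the pentose phosphate pathway and an NRF2 target, was 1.92-fold higher (difference 0.94 ± 0.07 SE, adjusted p = 4.32e-05). MTHFD1, a folate enzyme gene, was 1.99-fold lower. Named after their values were seen, the cytosolic isocitrate dehydrogenase gene IDH1 differed by -0.50 and the mitochondrial malic enzyme genes ME2 and ME3 by 0.19 and -0.06 (adjusted p = 0.00181, 0.0731 and 0.418).

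**Figure D3:**
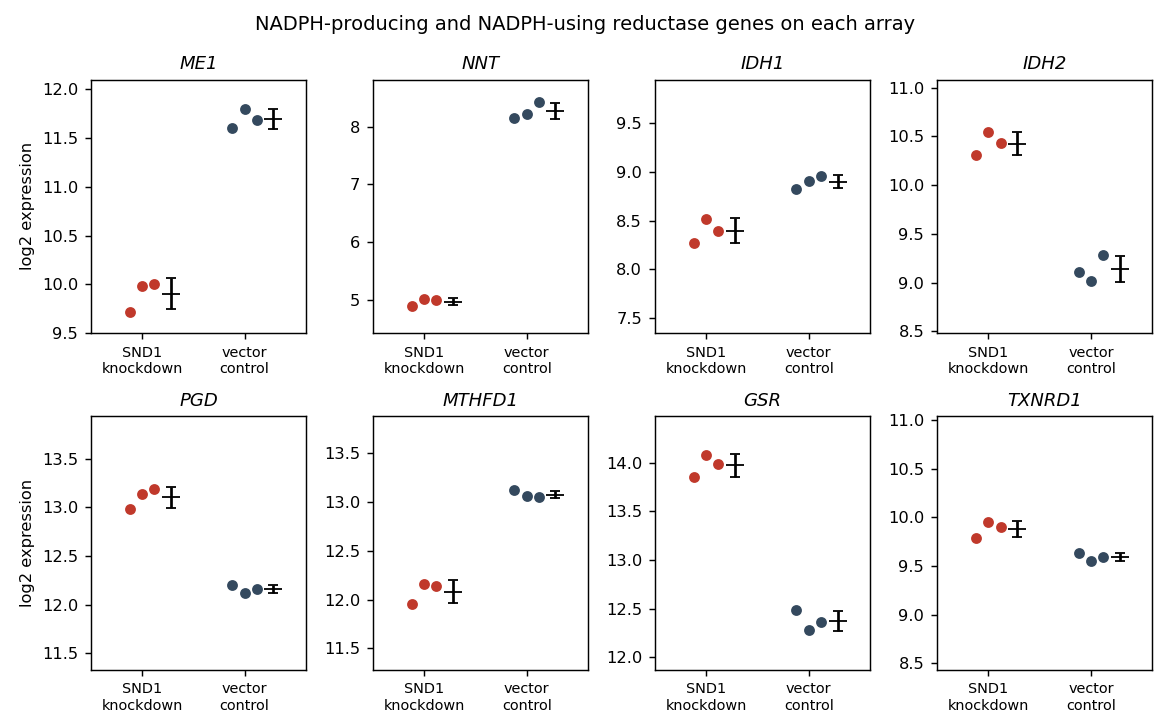
Log2 expression on each array of 6 genes whose enzymes make NADPH (ME1, NNT, IDH1, IDH2, PGD, MTHFD1) and 2 reductase genes that use it (GSR, TXNRD1), SND1 knockdown left and vector control right. Points are arrays and bars are means ± SD of 3 arrays; the NNT panel spans a wider log2 range than the other panels. ME1, NNT, IDH1 and MTHFD1 are lower in knockdown cells and IDH2, PGD, GSR and TXNRD1 higher.

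Among drug and carbonyl metabolism genes 14 of 28 measured were higher and 7 lower (median 0.23), 75% past the threshold against 32.0% of all genes. CYP2S1, a cytochrome P450 gene, was 5.5-fold higher, at 8.81, 9.14 and 8.87 on the knockdown arrays, against 6.46, 6.51 and 6.47 on the control arrays (limma adjusted p = 2.1e-06). The efflux pump gene ABCG2 was at least 1.06-fold higher (log2 difference 1.55), its control mean of 4.81 lying within the background range. CYP4F11, another P450 gene, was at least 3.28-fold lower and the aldehyde dehydrogenase gene ALDH7A1 2.56-fold lower. The aldo-keto reductase genes AKR1C1, AKR1C2 and AKR1C3, which in human cells are NRF2 targets, differed by 0.32, 0.26 and 0.65 (adjusted p = 0.0656, 0.119 and 0.00241), and AKR1C4, within the background range, by 0.37 (0.0133). The first control array was the highest of the control arrays for all 4. Without it AKR1C1 and AKR1C2 passed (adjusted p = 0.00479 and 0.00368), and without the second control array AKR1C4 did not (0.0513). These genes are close relatives, and the probes cannot be assumed to separate them fully.

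Of 15 measured heme and iron genes 4 were higher and 3 lower (median -0.03), 46.7% past the threshold against 32.0% of all genes. BLVRA, encoding the biliverdin reductase that acts after heme oxygenase, was 1.5-fold lower (limma adjusted p = 0.00109). The ferrireductase gene STEAP3 was at least 1.58-fold higher, and the transferrin receptor gene TFRC was 1.35-fold lower. ALAS1, encoding the first enzyme of heme synthesis, was 1.23-fold higher (adjusted p = 0.0261), a call that ended without the second or the third array of either group (adjusted p = 0.07 to 0.0904). Leaving out any 1 of these 4 arrays gave 2 genes of the list higher rather than 4.

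Of 9 measured genes for superoxide and peroxide removal 2 were higher and 2 lower (median 0.15), 44.4% past the threshold against 32.0% of all genes. Catalase, CAT, was 2.4-fold higher, at 11.33, 11.49 and 11.42 on the knockdown arrays, against 10.18, 10.12 and 10.15 on the control arrays (limma adjusted p = 4.78e-06). SELENOP was higher by 0.94 within the background range. SELENOW and CCS were lower by 0.23 and 0.17 there (adjusted p = 0.0169 and 0.0316), and with any 1 array left out at most 1 of this list was lower. CCS did not pass without the first or the third control array or any knockdown array, and SELENOW not without the first or second control array. Without the first knockdown array 4 rather than 2 were higher. Of 14 measured NADPH oxidase genes, whose products make superoxide, 1 was higher and 0 were lower by limma, with 1 lower at an unadjusted p under 0.05. That is 7.14% past the threshold, against 32.0% of all genes. The higher gene was CYBA, the p22phox subunit, 2.24-fold higher (difference 1.17 ± 0.08 SE, adjusted p = 3.28e-05), while 12 of the 14 lay within the background range.

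**Figure D4:**
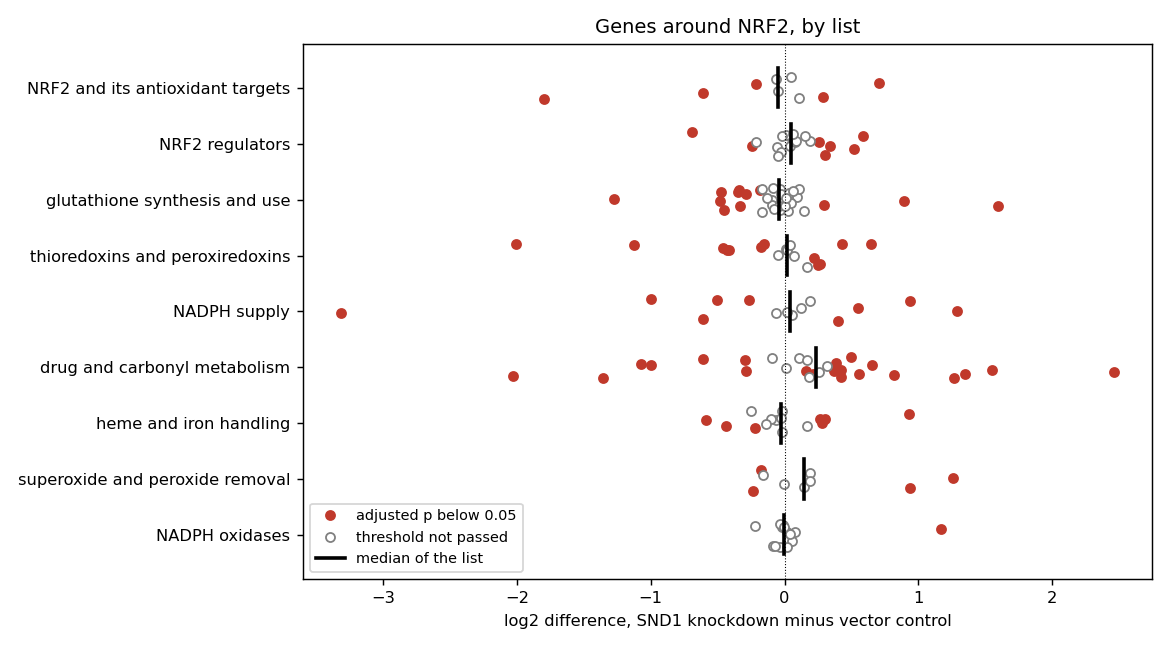
Log2 differences (SND1 knockdown minus vector control) of single genes in the NRF2 list and 8 lists around it, 1 row per list. Filled points passed an adjusted p of 0.05, open points did not, and vertical bars are list medians. Every list but that of NADPH oxidases has filled points on both sides of 0, with NNT (-3.31) and CYP2S1 (2.46) at the ends.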

How the data were processed

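RNA of 6 arrays (6 µg of total RNA each, per the labels' protocols) was measured on a human transcriptome design. Each deposited value is a log2 expression level of 1 probe set, made by the authors with RMA (background correction, quantile normalization and probe set summary), per the submitters' processing notes, which give no version. They run from 1.85 to 19.9, and 4457 exceed 16, the log2 ceiling of a 16-bit scanner, so the variant of RMA is unknown and fold sizes depend on it. Scanner files and batches were not examined, and the number of arrays limits the precision.

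Of 70523 probe sets 23781 carried 1 symbol, 1543 several and 45199 none in the platform annotation. Symbols were updated through RefSeq (306 changed), and the brightest probe set per gene was kept. Shared probe sets were left unnamed, except those of SND1 and SRXN1, which are given as shared. Differences were fitted with lmFit and eBayes of limma 3.58.1 (R 4.3.3) on 22413 genes, without filter or covariate, adjusted by Benjamini-Hochberg at 0.05. Folds are lower bounds where the dimmer mean did not exceed 6.28, which is the highest mean among 23 background control probe sets.

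The genes and lists were chosen with earlier results of these data known, so no p is given for a list. Named were SND1, the 9 genes, up to 4 genes per list with the largest differences past the threshold without overlap, and a set of partners. On data simulated for this comparison (22413 genes, 200 changed, 10 simulations), 68.4% of changes of log2 size 0.5, 94.2% of size 1 and 99.1% of size 2 were called. Of the calls 5.34% were false. In the data 7166 genes passed, far more than 200, and the adjusted threshold depends on that share, so these rates need not hold there. Alternatives were other normalizations, a filter on dim genes, probe set choices, variance models, array weights, a replicate block and leaving out each array.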

Additional observations from a re-analysis of the deposited data

How the results depend on the processing

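Among the 9 NRF2 genes the direction of every difference held under 14 alternatives, and the calls of ME1, HMOX1, GCLC and TXNRD1 and the missed threshold of NFE2L2, KEAP1, GCLM and the SRXN1/SCRT2 probe set held as well. NQO1 was the exception: its difference was -0.18 after renewed quantile normalization, -0.22 after centring on array medians and -0.21 over all probe sets, none past the threshold, and -0.24 to -0.16 with single arrays left out. The HMOX1 difference was -0.64 to -0.58 over the 14 alternatives. Raising its levels to the highest background mean sets it to 0 by construction, because both groups lie below that mean. Same-numbered arrays of the 2 groups share only a number: their deviations correlated at -0.02, -0.04 and -0.06, and no knockdown array correlated best with the control array of its number. With the replicate number as a block 6232 genes passed rather than 7166, NQO1 had an adjusted p of 0.04997, 1 regulator, 4 thioredoxin genes and 1 superoxide gene were lower, and 2 heme genes were higher. The calls of SLC7A11, TXNIP, ALAS1 and CCS ended with the block (adjusted p = 0.0755, 0.0667, 0.0539 and 0.0954), and those of TXNIP, ALAS1, CCS and SELENOW over all probe sets (0.0739, 0.0803, 0.126 and 0.0706). Centring left 1 superoxide gene lower, and the filter on dim genes gave 4 higher. Leaving out single arrays gave 1 to 2 regulators lower, 3 to 5 thioredoxin genes higher and 4 to 6 lower, 2 to 4 heme genes higher, and 2 to 4 superoxide genes higher and 0 to 1 lower, with 2909 to 3501 genes higher and 2957 to 3384 lower over the array. The cause of these shifts was not tested. Dim signal limits HMOX1, MAFG, MAFF, GLRX and most NADPH oxidase genes, with no detection calls.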
